A study of Mus musculus with 82 samples.

Results

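Primed CD8 T cells were compared after a synthetically glycosylated form of the antigen ovalbumin (pGal-OVA, called pGal here) and after saline. The 17 libraries examined, 10 after pGal and 7 after saline, are those of the therapeutic experiment in which Cd8a counts exceeded Cd4 counts, whatever cell label they carried, out of 82 libraries in the series and 53 in that experiment. They were thus selected on measured Cd8a and Cd4 counts, and treatment was taken as labelled. Both groups share the same history: mice received OT-I cells (CD8 T cells with a receptor for an ovalbumin peptide) together with OT-II cells (CD4 T cells specific for ovalbumin), were immunized under the skin with ovalbumin in complete Freund's adjuvant on the following day, and were treated a month later. Spleen and lymph nodes were pooled after a further 4 days, and cells were sorted and snap frozen, with 1 mouse behind each library. Another group of 10 CD8 libraries from mice given 5 µg of plain ovalbumin (OVA) is set beside them. The pGal dose is 5 µg in the design text, whereas the treatment protocol gives the molar equivalent of the OVA, so equal antigen amounts cannot be assumed. The sources used here give no sort gate, age or sex, the strain labels carry a different final number for each library, and the protocol text of these samples repeats wording of the other experiment.

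CD8 T cells that have met antigen expand, become killers carrying granzymes and perforin, and then leave memory cells kept alive through the interleukin-7 receptor (Il7r) and the survival protein Bcl-2. On meeting antigen again they switch on immediate-early genes such as Fos, Jun, Nr4a1 and Myc within hours. Under lasting stimulation they gain inhibitory receptors such as PD-1 (Pdcd1) and LAG-3, with the factor TOX. Antigen carrying sugars that liver cells take up is studied as a way to make T cells tolerant, and the comparison asks what such an antigen leaves in cells that were already primed.

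Library totals ranged from 24.7 to 62.5 M estimated counts after saline and from 29.8 to 56.7 M after pGal. Between 14394 and 16898 genes had a count after saline and between 14215 and 20911 after pGal. In 11 libraries of the therapeutic experiment the transcripts went against the cell label. Among the members, pGal 5, pGal 7 and saline 3 are labelled OT-II, and of the libraries labelled OT-I, 2 of 10 after pGal and 2 of 8 after saline had Cd4 above Cd8a and are not members. The 8 pGal and 6 saline libraries with matching labels form a check given where it changes a result. pGal 5 stood apart in transcripts encoded in mitochondrial DNA. Of the members, pGal 9 had the most genes detected, 20911 against 18583 in pGal 2, the next. In bulk libraries, fewer cells of a type and less RNA per cell cannot be told apart.

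The choosing transcripts are given as a description, in counts per M after TMM scaling (normalized CPM, used throughout). Cd8a, the CD8 alpha chain, had a lowest, median and highest level of 808, 1099 and 1132 CPM after saline and of 814, 1085 and 1347 CPM after pGal. Cd8b1, the beta chain, had 1702, 2298 and 2587 CPM after saline and 1561, 2132 and 2447 CPM after pGal. Cd4 lay at 0.556, 1.26 and 4.18 CPM after saline and at 0.616, 2.63 and 4.55 CPM after pGal. No library lay near the threshold: the smallest ratio of Cd8a to Cd4 counts was 225 after saline and 248 after pGal.

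**Figure D1:**
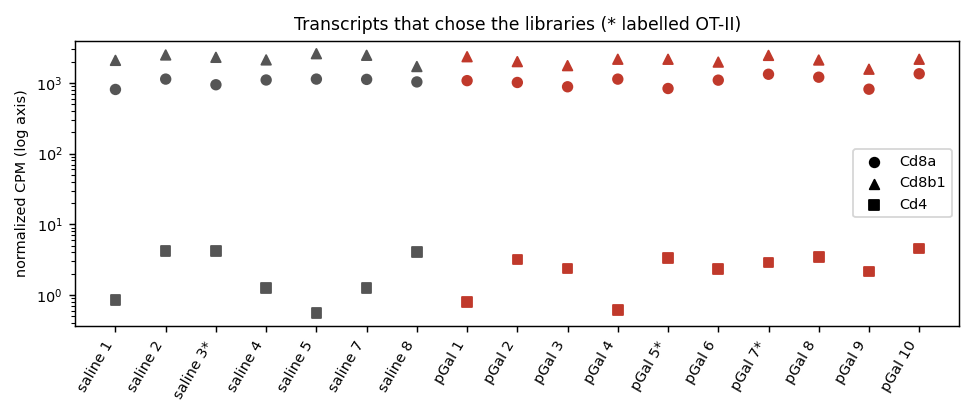
Normalized CPM (log axis) of Cd8a (circles), Cd8b1 (triangles) and Cd4 (squares) in each saline (grey) and pGal (red) library, with an asterisk on libraries labelled OT-II. Cd4 stays below 5 CPM in all 17 libraries while the lowest Cd8a level is 807.5 CPM.

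No gene passed the test between pGal and saline. Of 14480 genes tested with the quasi-likelihood test of edgeR on all 27 CD8 libraries of the experiment, 0 (0%) had a Benjamini-Hochberg adjusted p under 0.05, and the smallest adjusted p was 0.0532. At an unadjusted p under 0.05, 606 genes (4.19%) were higher and 371 (2.56%) lower after pGal, 977 in all. DESeq2 called 28 genes (22 higher, 6 lower), limma voom called 0, and edgeR restricted to genes with a mean of at least 10 CPM in a group called 5. On simulated counts with known changes, DESeq2 made more false calls than its threshold promises, which limits all its calls given here. The log2 difference of a typical gene had a 95% confidence interval, before any adjustment, reaching 0.54 to either side. Smaller differences were generally not detectable with these libraries. After adjustment larger ones were not called either, such as 1.04 for Tnfrsf13b, the gene with the adjusted p of 0.0532. The median log2 difference over all genes was 0.05. With label-matching libraries only, 475 genes were higher and 477 lower at an unadjusted p under 0.05 and none was called. In the same fit as the first, plain OVA against the same 7 saline libraries gave 184 calls (1.27%), 91 higher and 93 lower.

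The genes with the smallest p among those of at least 10 CPM are described as values, since edgeR called none of them. DESeq2 called all 10, with adjusted p from 0.000164 for Tnfrsf13b to 0.0277 for Eva1b and Tspan32. Its excess of false calls on simulated counts applies here too. Of these 10 genes, 7 were higher and 3 lower after pGal. Being picked by smallest p, each has a confidence interval that leaves out 0 before any adjustment. For OVA against the shared saline libraries 8 of the 10 were called, beside 1.27% of all genes. Since both contrasts use the same saline libraries, genes picked in 1 of them are favoured in the other. Tnfrsf13b (GRCm38 chr11:61126755-61149372, plus strand) encodes TACI, a receptor for the cytokines BAFF and APRIL that is best known on B cells. Its lowest, median and highest levels were 11.2, 18.8 and 29.4 CPM after saline and 22.2, 40.2 and 51.9 CPM after pGal. In 8 of 10 pGal libraries it lay above the highest saline library, and the log2 difference was 1.04 (95% interval 0.66 to 1.42, adjusted p = 0.0532). The OVA libraries had a median of 41.6 CPM.

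Since Tnfrsf13b is a gene of B cells as well, the B cell transcripts are given beside it. The summed level of 17 B cell markers was 565, 1142 and 1943 CPM (lowest, median, highest) after saline and 820, 1530 and 3035 CPM after pGal. After OVA, where Tnfrsf13b was as high as after pGal, the B cell marker sum had a median of 1031 CPM. Of the 17 markers, 15 had a positive and 2 a negative difference between pGal and saline, with a median log2 difference of 0.35 and none at an unadjusted p under 0.05. The median was 0.12 without pGal 5, 0.21 without saline 1 and 0.53 without saline 5. None of the 17 was at 0 in all members, and the part of B cell RNA in the Tnfrsf13b level was not tested.

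Sh2d1a (chrX:42502453-42529330, plus strand) encodes SAP, the adaptor through which SLAM-family receptors signal. It had 61.1, 87.1 and 93.4 CPM after saline and 100.9, 118 and 157 CPM after pGal. The groups did not overlap, and the log2 difference was 0.61 (0.36 to 0.85, adjusted p = 0.0828). Rap1a (chr3:105727267-105801336, minus strand), a small GTPase that controls integrin adhesion, had 87.4, 128 and 149 CPM after saline and 149.6, 188 and 259 CPM after pGal. Here too no pGal library reached down to the saline range, although the highest saline and the lowest pGal library lay close together, with a log2 difference of 0.67 (0.38 to 0.95, adjusted p = 0.118). Tstd3 also separated without overlap, from 10.7, 15.8 and 25.2 CPM after saline to 26.3, 27.6 and 42.1 CPM after pGal (log2 0.82, adjusted p = 0.0828).

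The survival gene Bcl2 (chr1:106538178-106714274, minus strand) was lower after pGal. It had 162, 241 and 500 CPM after saline and 99.1, 119 and 164 CPM after pGal, and 9 of 10 pGal libraries lay below the lowest saline library. Its log2 difference was -1.02 (-1.46 to -0.58, adjusted p = 0.122), and OVA, at a median of 83.0 CPM, was called lower than saline (log2 -1.57, adjusted p = 0.000149). Pprc1, a coactivator that drives mitochondrial biogenesis, went from 46.5, 72.7 and 87.2 CPM after saline to 25.1, 37.9 and 51.2 CPM after pGal (log2 -0.85, adjusted p = 0.0828). Znrf3, a ubiquitin ligase that removes Wnt receptors from the cell surface, went from 28.3, 38.5 and 64.0 CPM to 18.9, 24.5 and 32.5 CPM (log2 -0.75, adjusted p = 0.126). For both genes 8 of 10 pGal libraries lay below the lowest saline library.

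The remaining 3 of the 10 genes were higher after pGal. Eva1b had 20.0, 30.4 and 40.8 CPM after saline and 40.4, 48.3 and 77.4 CPM after pGal (log2 0.76, adjusted p = 0.169). The exonuclease gene Exo5 had 9.65, 15.2 and 19.7 CPM after saline and 18.0, 24.1 and 29.5 CPM after pGal (log2 0.73, adjusted p = 0.236). The tetraspanin gene Tspan32 had 61.1, 72.1 and 91.4 CPM after saline and 78.5, 133 and 236 CPM after pGal (log2 0.91, adjusted p = 0.252). Each of them overlapped between the groups, with 8 or 9 of 10 pGal libraries above the highest saline library. Tnfrsf13b was called in 7 of 29 alternative or reduced settings, Tstd3 in 4, Pprc1 in 3, Sh2d1a and Rap1a in 2 each and the other 5 with DESeq2 only. With label-matching libraries only, all 10 genes kept their sign, with adjusted p between 0.181 and 0.588, and Tnfrsf13b differed by 1.07 and Bcl2 by -1.10 on the log2 scale. With libraries taken as labelled OT-I, the difference of Tnfrsf13b was 0.62 (adjusted p = 0.847).

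**Figure D2:**
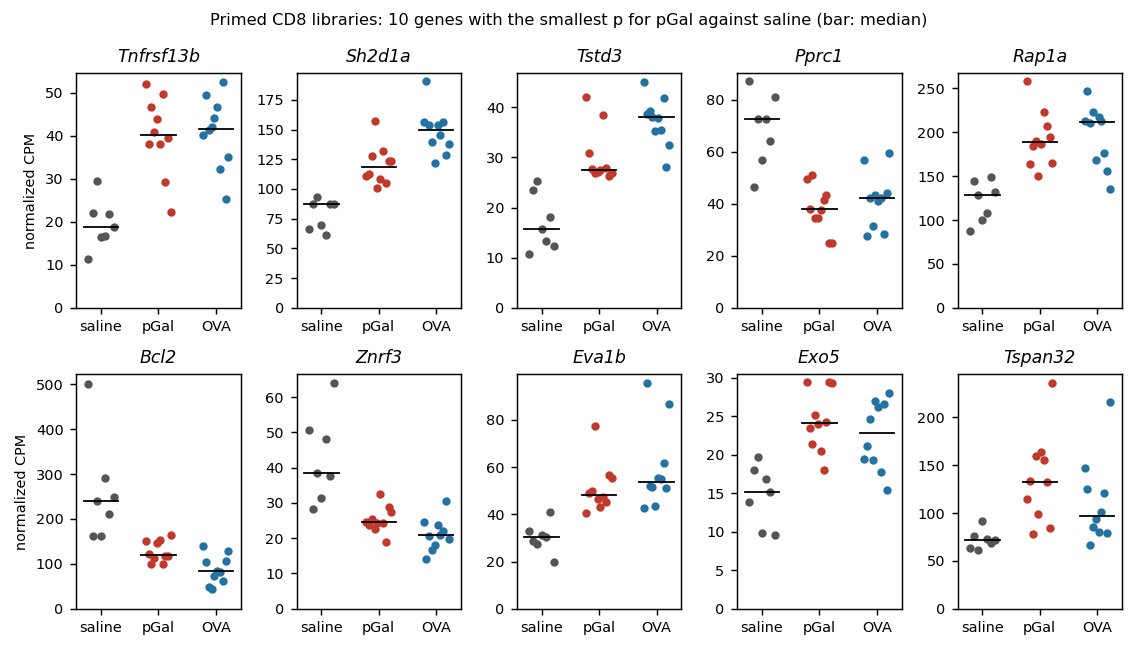
Normalized CPM of the 10 genes with the smallest p for pGal against saline, each point 1 CD8 library and each bar the group median, with the OVA libraries for comparison. Sh2d1a, Tstd3 and Rap1a show no overlap between saline and pGal, while the other 7 do.

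Complete separation of the groups was rare. All 10 pGal libraries lay above all 7 saline libraries in 9 of the 14480 genes (0.0622%) and below them in 3 (0.0207%). Besides Sh2d1a, Rap1a and Tstd3, the higher genes were Izumo1r, Klc3, Ap3s1, Tmem126a, Ncoa7 and Samd3, and the lower ones were Traf4, Timeless and Myc, named here because of this separation and so after their values were seen. Izumo1r encodes folate receptor 4, a surface protein known on regulatory and anergic CD4 cells. It had 18.2, 23.8 and 39.3 CPM after saline and 42.1, 84.6 and 114 CPM after pGal, against a median of 44.1 CPM after OVA. Its log2 difference of 1.52 (0.72 to 2.33) came with an adjusted p of 0.378, and it was called when the fit held the pGal and saline libraries only. The growth regulator Myc had 163.4, 175 and 235 CPM after saline and 56.4, 117 and 162.5 CPM after pGal (log2 -0.67, adjusted p = 0.529), so that the lowest saline and the highest pGal library nearly met.

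A panel of 23 genes of T cell state gave no call (edgeR, smallest adjusted p 0.270). In 13 the log2 difference was positive and in 10 negative, and in 4 the unadjusted confidence interval left out 0: Il7r, Lag3, Tox and Eomes. DESeq2 called Il7r alone (adjusted p = 0.0277). None of the 23 separated the groups without overlap.

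Among genes of memory and homing, the interleukin-7 receptor Il7r had 396, 701 and 857 CPM after saline and 251, 360 and 513 CPM after pGal. In 7 of 10 pGal libraries it lay below the lowest saline library, which itself lay well below the next, and the log2 difference was -0.91 (-1.35 to -0.46, adjusted p = 0.270). OVA had a median of 194 CPM and was called lower than saline (log2 -1.74). The memory factor Tcf7 had 466.1, 721 and 904 CPM after saline and 545, 863 and 1210 CPM after pGal, a log2 difference of 0.25 (-0.17 to 0.66). The lymph-node homing receptor gene Ccr7 had a log2 difference of -0.28 (-0.78 to 0.22). For Tcf7 and Ccr7 the ranges of the groups overlapped widely.

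Of the inhibitory receptors and exhaustion factors, Lag3 had 5.96, 9.50 and 25.1 CPM after saline and 14.7, 18.9 and 56.9 CPM after pGal (log2 0.91, interval 0.36 to 1.46, adjusted p = 0.499). One library in each group, saline 4 and pGal 1, was far above its own group in Lag3. Tox had 38.5, 44.0 and 69.1 CPM after saline and 57.9, 76.2 and 100.4 CPM after pGal (log2 0.59, interval 0.18 to 1.00, adjusted p = 0.578). PD-1 (Pdcd1) had 23.2, 36.4 and 84.5 CPM after saline and 18.3, 54.4 and 83.3 CPM after pGal, spanning nearly the same range (log2 0.34, interval -0.18 to 0.87). The intervals of Ctla4 (log2 0.16, -0.46 to 0.78), Tigit (0.09, -0.48 to 0.65) and Havcr2, which encodes TIM-3 (0.29, -0.34 to 0.93), also spanned 0. Against the same saline libraries OVA was called for Havcr2 (log2 1.23, adjusted p = 0.0474).

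Cytotoxic and effector genes lay in overlapping ranges. Granzyme B (Gzmb) had 188, 461 and 584 CPM after saline and 278, 428 and 812 CPM after pGal, a log2 difference of 0.11 (-0.66 to 0.89). Granzyme A (Gzma) had 239, 565 and 761 CPM after saline and 321, 545 and 2182 CPM after pGal (log2 0.59, -0.35 to 1.53), where the highest value is that of pGal 5. Granzyme K (Gzmk), whose level was called higher after OVA (log2 1.55), had a difference of 0.54 (-0.16 to 1.24) after pGal. Perforin (Prf1) had a difference of -0.38 (-1.04 to 0.28), and the cytokine gene Ifng went from 140, 231 and 365 CPM to 27.4, 149 and 312 CPM (log2 -0.74, -1.50 to 0.03).

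Among factors and markers of effector fate, the interval left out 0 for Eomes only. Eomes, a T-box factor of effector and memory CD8 cells, had 87.0, 121 and 138 CPM after saline and 89.9, 144 and 214 CPM after pGal (log2 0.32, 0.02 to 0.62, adjusted p = 0.726), and OVA was called higher (log2 0.74). The related factor Tbx21 differed by 0.03 (-0.50 to 0.55) on the log2 scale, and the sign of so small a value depends on the libraries used. The effector-subset markers Klrg1 (0.80, -0.19 to 1.80) and Cx3cr1 (-0.12, -1.10 to 0.87), the chemokine receptor Cxcr3 (-0.06, -0.48 to 0.35), the antigen-experience marker Cd44 (-0.15, -0.51 to 0.20) and the division marker Mki67 (-0.25, -1.11 to 0.60) had log2 differences with intervals across 0.

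**Figure D3:**
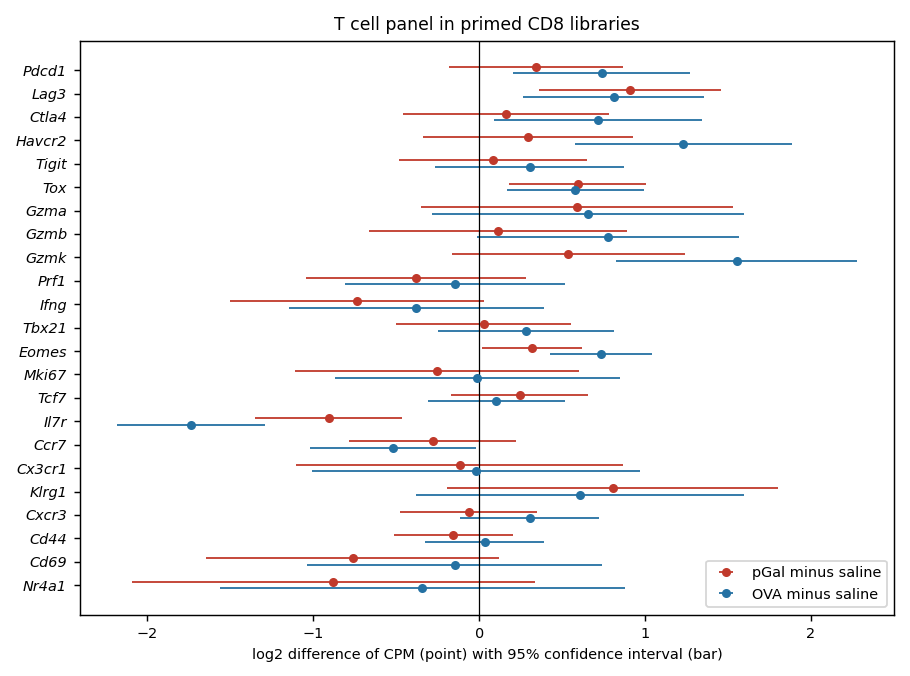
Log2 differences (points) with 95% confidence intervals (bars) of the 23 panel genes in primed CD8 libraries, for pGal against saline (red) and OVA against saline (blue), which share the saline libraries. For pGal the intervals of Il7r, Lag3, Tox and Eomes leave out 0, and none of the 23 passed after adjustment with edgeR, while DESeq2 called Il7r.

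Gene lists were described by their counts at an unadjusted p under 0.05, read against 4.19% higher and 2.56% lower over all genes, and by their median log2 difference, read against 0.05 over all genes. The lists hold 522 genes, of which 496 were tested, and none of these was called with edgeR. DESeq2 called 6 of them: Bcl2, Car2, Il7r, Izumo1r, Sh2d1a and Zbtb32. Over all genes, 8294 differences were positive and 6186 negative. List genes named in what follows that are not in the panel were picked after their values were seen.

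Immediate-early and other genes that follow T cell receptor signalling were mostly lower after pGal. Of 29 tested, 23 had a negative and 6 a positive difference, 12 were lower and 1 was higher (Egr3) at an unadjusted p under 0.05, and the median log2 difference was -0.57. The 12 were Fos, Fosb, Fosl2, Jun, Junb, Myc, Ier2, Ier3, Dusp5, Tnfaip3, Nfkbia and Nfkbid, a group of AP-1 subunits, other immediate-early genes and brakes of NF-kappaB and kinase signalling. The AP-1 subunit gene Fos had 899, 1630 and 2408 CPM after saline and 19.0, 800 and 1483 CPM after pGal (log2 -1.05), with pGal 5 at the lowest value and all 10 pGal libraries below the saline median. Its partner Jun had 1347, 1519 and 2995 CPM after saline and 122, 1129 and 2047 CPM after pGal (log2 -0.80), and Nfkbia, the inhibitor of NF-kappaB, had 585, 618 and 1199 CPM and 293, 429 and 798 CPM (log2 -0.67). Both overlapped between the groups.

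How many of the early-response genes were lower depended on single saline libraries. Leaving out each library in turn gave 5 to 14 genes lower at an unadjusted p under 0.05, with the fewest without saline 8, and a median between -0.70 and -0.52. With label-matching libraries only, 13 were lower and the median was -0.66, and without pGal 5 and pGal 9 it was also 13, with a median of -0.60. The antigen-receptor reporter gene Nr4a1 itself ranged from 105 to 621 CPM after saline and from 11.7 to 403 CPM after pGal, with medians of 214 and 118 CPM (log2 -0.88, -2.09 to 0.34). Cd69, an early activation marker, had medians of 271 and 204 CPM (log2 -0.76, -1.65 to 0.12). The OVA libraries had negative differences from the same saline libraries as well, with a median of -0.39 over the 29 genes and none called.

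Heat shock and sorting-stress genes had lower levels after pGal as well. All 18 tested had a negative difference, 7 at an unadjusted p under 0.05, and the median log2 difference was -0.58. The lists share 6 genes. Of the other 12, all had a negative difference and 3 were lower at an unadjusted p under 0.05: the chaperone genes Hsp90aa1, Hsp90ab1 and Dnajb1. Hsp90ab1 had 1673, 2130 and 2473 CPM after saline and 1082, 1555 and 2022 CPM after pGal (log2 -0.48). Dnajb1 had 467, 605 and 693 CPM after saline and 250, 332 and 827 CPM after pGal (log2 -0.58), with pGal 7 as the highest of all. Leaving out single libraries gave 3 (without saline 4) to 10 of the 18 lower. The part of handling during the sort in the early-response difference was not tested.

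**Figure D4:**
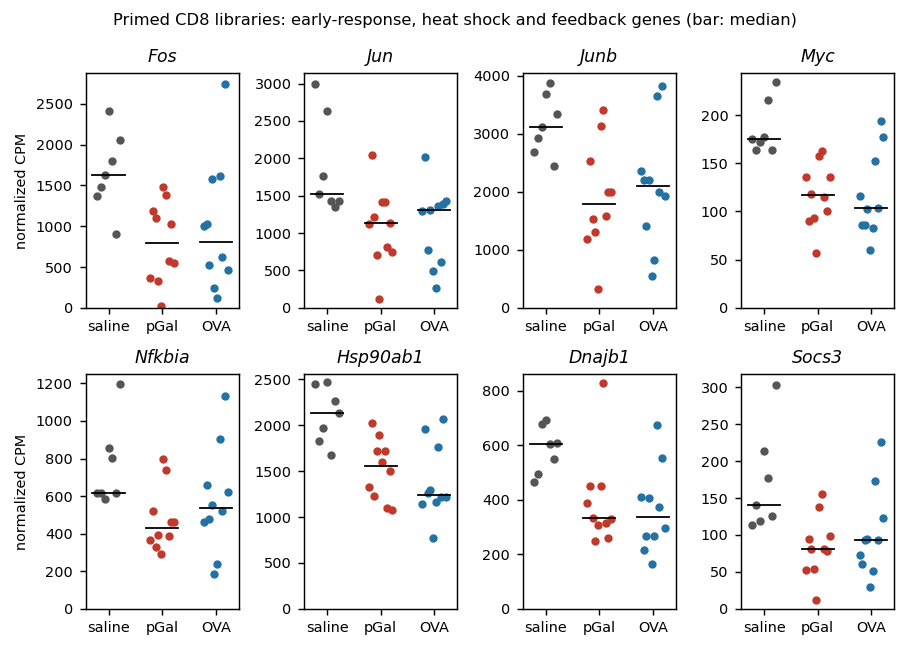
Normalized CPM of 8 early-response, heat shock and feedback genes, each point 1 CD8 library and each bar the group median. Fos has medians of 1630 CPM after saline and 800 CPM after pGal, and of the genes shown Myc alone has no overlap between these groups.

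Cytokine receptors and the feedback genes that cytokines induce followed the same direction. Of 23 tested, 22 had a negative difference and 7 were lower at an unadjusted p under 0.05 (Il7r, Il15ra, Il18r1, Socs1, Socs3, Pim1 and Pim2), 1 was higher (Il10ra), and the median was -0.31. Leaving out single libraries gave 4 (without saline 5) to 9 lower. Socs3, a brake on cytokine signalling, had 113, 140 and 303 CPM after saline and 11.5, 81.2 and 155 CPM after pGal (log2 -1.01). Pim1, a kinase induced by cytokines, had 59.7, 114 and 185 CPM and 23.6, 59.2 and 113 CPM (log2 -0.98), and all pGal libraries lay below the saline median. The glucose transporter gene Slc2a1 was 1 of 2 lower genes of 17 in the glycolysis list, from 81.6, 86.6 and 122 CPM to 23.6, 65.1 and 86.1 CPM (log2 -0.66), with no pGal library above the saline median.

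Inhibitory receptor and exhaustion genes had more positive than negative differences. Of 22 tested, 17 had a positive difference, 5 were higher at an unadjusted p under 0.05 (Lag3, Cd244a, Tox, Cd200 and Eomes) and none lower, with a median log2 difference of 0.23. Leaving out single libraries gave 3 to 6 higher (3 without pGal 2, pGal 4, pGal 7 or saline 5), and without saline 1 the median was 0.11. In the anergy list of 17, Egr3 and Izumo1r were higher and Rgs2 lower, and in the list of 22 cytotoxic effectors 1 was higher (Serpinb6b) and none lower.

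Factors of naive and memory cells were split. Of 22 tested, Id3, Myb, Bcl6 and Slamf6 were higher and Satb1, Il7r and Bcl2 lower at an unadjusted p under 0.05, with a median of -0.10. Id3, a factor of memory precursors, had 86.9, 154 and 202 CPM after saline and 137, 244 and 366 CPM after pGal (log2 0.73), and 9 of 10 pGal libraries were above the saline median. Slamf6, a receptor that signals through SAP, had 209, 284 and 383 CPM and 318, 412 and 592 CPM (log2 0.61), with all 10 above that median. Myb had 15.4, 41.7 and 65.4 CPM and 32.0, 97.2 and 116 CPM (log2 1.03). None of these 3 separated the groups fully.

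Of 18 effector differentiation factors, Eomes, Zbtb32 and Ikzf3 were higher and Bhlhe40 and Klf6 lower at an unadjusted p under 0.05. Zbtb32, a repressor induced in activated lymphocytes, had 20.8, 38.6 and 59.2 CPM after saline and 47.1, 89.2 and 132 CPM after pGal (log2 1.16, adjusted p = 0.378), with every pGal library above the saline median. The integrin chain Itga4 had 119, 131 and 201 CPM and 137, 216 and 567 CPM (log2 0.80, adjusted p = 0.529). OVA was called higher than the shared saline libraries for both, with log2 differences of 1.69 for Zbtb32 and 1.68 for Itga4.

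Division genes showed no gene at an unadjusted p under 0.05. Of 35 tested, 29 had a negative difference, with a median of -0.14. That median ranged from -0.33 (without saline 1) to 0.01 (without saline 2) when single libraries were left out, and without pGal 7 there were 4 genes lower at an unadjusted p under 0.05. Their summed level was 994, 2654 and 3318 CPM after saline and 1033, 1865 and 2889 CPM after pGal. Type I interferon-stimulated genes (2 higher and 1 lower of 29), interferon gamma-inducible genes (1 and 3 of 24), cholesterol synthesis genes (0 and 0 of 21) and nuclear-encoded respiratory chain genes (1 and 0 of 24) had medians of -0.10, -0.07, -0.07 and 0.16. Leaving out single libraries moved them within -0.21 to -0.04, -0.18 to -0.04, -0.21 to -0.01 and 0.08 to 0.19.

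Transcripts of the mitochondrial genome rested on pGal 5. Of 13 tested, 9 were higher at an unadjusted p under 0.05 with a median log2 difference of 1.19, but without pGal 5 none was and the median was 0.12. Their summed level reached 94690 CPM in pGal 5, against at most 12396 CPM in the other pGal libraries and 10153 CPM after saline. The same library had the highest B cell and NK cell marker sums of the pGal group, 3035 and 2540 CPM. Without it the 18 tested killer lectin-like and NK receptors went from 3 higher at an unadjusted p under 0.05 to 0, with the median going from 0.45 to 0.07, and over all genes the count went from 606 higher and 371 lower to 436 higher and 515 lower.

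Markers of other cells were present in both groups. The summed myeloid level was 142, 221 and 404 CPM after saline and 187, 279 and 344 CPM after pGal. Erythroid and platelet markers had 75.5, 86.0 and 692 CPM and 34.6, 271 and 856 CPM, NK cell markers 408, 780 and 932 CPM and 527, 773 and 2540 CPM, and stromal markers 44.1, 60.7 and 80.7 CPM and 58.0, 80.8 and 115 CPM. Myeloid (16 tested, median log2 difference 0.30) and gamma delta T markers (4 tested, 0.34) had none at an unadjusted p under 0.05. Several NK cell markers, such as Gzma, Eomes and Klrb1c, are also made by CD8 T cells. Of 10 erythroid and platelet markers tested, Car2 was higher, with a median of 0.51, and of 10 NK cell markers Eomes and Tyrobp, with a median of 0.57 (0.35 without pGal 5). All 5 stromal markers tested had a positive difference, with Col3a1 and Pecam1 higher and a median of 1.68 (0.67 without pGal 9, where 4 were tested), against 1.80 for OVA. No marker was at 0 in all members, and the part of these cells in the differences was not tested.

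pGal and OVA were then compared directly, since both were set against the same saline libraries. Again 0 of 14480 genes (0%) passed in edgeR, with 822 at an unadjusted p under 0.05 and a smallest adjusted p of 0.109, while DESeq2 called 23. The scavenger receptor gene Cd163l1 led, with 4.62, 13.0 and 33.5 CPM after OVA and 20.8, 31.5 and 115 CPM after pGal (log2 1.85, 1.14 to 2.55, adjusted p = 0.109). Its saline median was 45.7 CPM, so pGal libraries lay nearer to saline than OVA libraries did. Cd40lg, the CD40 ligand, had 3.13, 4.70 and 10.4 CPM after OVA and 4.37, 13.2 and 21.9 CPM after pGal (log2 1.28, adjusted p = 0.156), with a saline median of 19.1 CPM. It was called when pGal 5 and pGal 9 were left out.

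The NK receptor gene Klrb1c had 3.46, 9.42 and 26.4 CPM after OVA and 9.11, 35.7 and 174 CPM after pGal (log2 2.28), the highest being pGal 5. Gfod2 was also higher after pGal than after OVA (log2 0.99). Trim12c, of a family of antiviral ubiquitin ligases, was lower (log2 -0.75), as was Fhl2, a LIM-domain cofactor of transcription (log2 -1.10), with 16.6, 36.1 and 54.0 CPM after OVA and 8.85, 18.4 and 23.6 CPM after pGal. All 4 had an adjusted p of 0.156. For Il7r, pGal libraries were higher than OVA libraries by 0.83 on the log2 scale and for Bcl2 by 0.56 (adjusted p = 0.280 and 0.716). For Tnfrsf13b the difference between pGal and OVA was -0.03 (-0.36 to 0.30), and for Rap1a it was -0.03 (-0.28 to 0.23).

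The pGal response of primed CD8 cells was set against that of the primed CD4 libraries of the same experiment (10 after pGal, 8 after saline) by a test of the interaction. It was called for 0 of 15569 genes (0%) in edgeR, with 639 at an unadjusted p under 0.05 and a smallest adjusted p of 0.174, and DESeq2 called 5. In the same edgeR fit, pGal against saline within CD4 cells gave 90 calls among the 15569 genes, 32 higher and 58 lower. Slc26a11 and Nt5e were among the higher and Il7r among the lower. The labels do not say whether CD8 and CD4 libraries of the same number come from 1 mouse. Both saline libraries numbered 6, labelled OT-I and OT-II, are CD4 libraries by transcripts, and whether they come from 1 mouse is not known. Of 16 such pairs, 12 deviated together with a correlation above 0.1 (range 0.00425 to 0.688), and with treatment and number as a replicate block 1 gene was called, Slc26a11. Slc26a11, an anion transporter, had medians of 95.7 CPM after saline and 82.8 CPM after pGal in CD8 cells, and of 99.6 and 170 CPM in CD4 cells, a difference of responses of -1.36 (adjusted p = 0.174). Nt5e, the ectoenzyme CD73 known on anergic and regulatory T cells, had 88.8 and 70.4 CPM in CD8 cells and 62.8 and 131 CPM in CD4 cells, a difference of -1.26 (adjusted p = 0.227).

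Of the other leading genes of that test, Trmt6, Mafg and the ATP receptor gene P2rx7 had differences of responses of -0.89, -1.50 and -1.47 (adjusted p = 0.227, 0.227 and 0.341). P2rx7 was scarce in CD8 cells (medians of 9.34 and 8.17 CPM) and plentiful in CD4 cells (59.6 and 111 CPM). Ccn1 had a fitted difference of 10.35, which rested on 199 CPM in CD4 saline 1: its median was 0 in CD8 saline and in both CD4 groups, and the difference was 0.59 without that library. For Il7r the responses were -0.92 in CD8 and -1.05 in CD4 cells, and their difference was 0.13 (-0.51 to 0.77).

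Naive OT-I cells of the prophylactic experiment, which met antigen a day after transfer without earlier immunization, gave the other interaction (5 pGal and 5 saline libraries in 2 batches, each of 3 pooled mice on the C57BL/6 background). The second pGal library of batch 1 had 11446 Cd4 counts beside 55364 of Cd8a. The first saline library of batch 2 had 2645 beside 57196, and the others had at most 160 Cd4 counts. The part of CD4 cell RNA in the naive levels was not tested. Here 22 of 15506 genes (0.142%) passed, and all 22 had a lower pGal response in primed than in naive cells. All 22 were called higher after pGal in naive cells, with log2 differences from 1.01 to 6.82, against -0.19 to 1.21 in primed cells. Over all 15506 genes, 85 were called for pGal in naive cells, all of them higher. The interaction holds this naive contrast, so genes with a large naive rise are favoured in it. In 21 of the 22 the mean level in primed saline libraries was already above the mean of naive pGal libraries. The exception was Ctla4. The experiments also differ in immunization, in sorting and freezing, in pooling and in being deposited as separate tables, and these cannot be told apart. Levels across them are on a joint TMM scale.

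The promoters of the 4 genes with the smallest p in this test that are not in the panel are printed. All 4 genes were called for pGal in naive cells, whereas edgeR called no gene at all for pGal in primed cells. Each promoter is the 300-base RefSeq window on GRCm38.p6, 250 bases before to 50 after the start, on the minus strand of the genome and read 5′ to 3′. The windows are chr1:171648950-171649249 for Slamf7, chr13:60936576-60936875 for Ctla2a, chr1:85961006-85961305 for Gpr55 and chr13:60897398-60897697 for Ctla2b. Capitals mark the AP-1 motif TGANTCA and the NFAT core GGAAA on either strand.
Slamf7: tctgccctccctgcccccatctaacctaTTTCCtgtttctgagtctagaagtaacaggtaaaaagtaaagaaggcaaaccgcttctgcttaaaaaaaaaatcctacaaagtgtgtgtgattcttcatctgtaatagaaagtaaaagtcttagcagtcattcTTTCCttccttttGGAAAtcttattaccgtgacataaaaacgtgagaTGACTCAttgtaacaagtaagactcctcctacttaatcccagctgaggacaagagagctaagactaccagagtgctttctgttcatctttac
Ctla2a: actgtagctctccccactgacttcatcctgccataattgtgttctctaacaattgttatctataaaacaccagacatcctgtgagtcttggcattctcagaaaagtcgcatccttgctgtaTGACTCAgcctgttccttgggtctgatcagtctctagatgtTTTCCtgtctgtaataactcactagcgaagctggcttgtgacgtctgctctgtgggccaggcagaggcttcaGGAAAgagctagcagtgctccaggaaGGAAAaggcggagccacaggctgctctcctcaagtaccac
Gpr55: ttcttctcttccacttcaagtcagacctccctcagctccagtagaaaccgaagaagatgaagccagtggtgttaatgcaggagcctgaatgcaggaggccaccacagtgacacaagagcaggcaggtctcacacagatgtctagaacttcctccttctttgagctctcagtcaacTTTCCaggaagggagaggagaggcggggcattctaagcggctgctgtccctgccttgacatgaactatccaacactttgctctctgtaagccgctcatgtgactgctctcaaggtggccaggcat
Ctla2b: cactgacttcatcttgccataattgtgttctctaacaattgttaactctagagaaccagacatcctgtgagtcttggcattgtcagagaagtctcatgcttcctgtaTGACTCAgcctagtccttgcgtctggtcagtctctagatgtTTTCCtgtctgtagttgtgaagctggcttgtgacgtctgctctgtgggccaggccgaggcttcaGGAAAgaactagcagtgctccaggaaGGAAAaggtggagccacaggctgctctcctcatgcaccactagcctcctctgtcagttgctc
Slamf7, Ctla2a and Ctla2b each hold 1 AP-1 match and 3 NFAT core matches, and Gpr55 holds no AP-1 match and 1 NFAT core match. The windows of Ctla2a and Ctla2b are near copies of each other, so their matches are not independent. Of 32851 promoter windows of this length, 7.81% hold the AP-1 motif, 61.3% the NFAT core and 5.0% both. The RefSeq window of Slamf7 lies 4036 bases from the gene start of the annotation used for the other coordinates. A match is a description of letters and not a binding site.

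Slamf7, a SLAM-family receptor of cytotoxic cells, stood at 16.1, 15.1, 12.7, 31.0 and 16.0 CPM in the naive saline libraries and at 46.0, 37.9, 48.5, 116 and 176 CPM in the naive pGal libraries. In primed cells its median was 215 CPM after saline and 210 CPM after pGal. The response was 2.08 in naive and -0.10 in primed cells, a difference of -2.18 (SE 0.28, adjusted p = 2.18e-05). Ctla2a encodes a cathepsin inhibitor of activated T cells, and its product is a near copy of that of Ctla2b, so reads may be split between them. It had 34.6, 30.7, 24.9, 20.2 and 29.9 CPM in naive saline libraries and 133, 83.0, 118, 272 and 447 CPM in naive pGal libraries, against medians of 389 and 433 CPM in primed cells (difference -2.61, adjusted p = 2.18e-05). For both genes no naive pGal library overlapped the naive saline libraries, and the last 2 pGal values, from the second batch, were the highest.

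Gpr55, a receptor for lysophospholipids, had 1.25, 1.55, 0.681, 4.28 and 7.23 CPM in naive saline and 9.02, 9.30, 4.72, 32.6 and 41.5 CPM in naive pGal libraries, and medians of 18.3 and 24.0 CPM in primed cells (difference -2.39, adjusted p = 0.000331). Across batches, the lowest naive pGal library of Gpr55 lay within its naive saline range. Within each batch, all its pGal libraries lay above all its saline libraries. The inhibitory receptor Ctla4 had a naive median of 7.82 CPM after saline and 66.4 CPM after pGal, and primed medians of 45.4 and 45.1 CPM (difference -2.65, adjusted p = 0.00636). Ctla2b (-2.13) and the histone methyltransferase gene Smyd1 (-3.11) completed the 6 with the smallest p. In primed cells Ctla2b had medians of 46.3 CPM after saline and 68.2 CPM after pGal, a response of 0.43. For this gene 6 of 10 primed pGal libraries lay above the highest primed saline library.

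The other 16 were Cd44, Lag3, Zbtb32, Cxcr3, Klrk1, Gzmk, Itgb1, Nrp1, Samd3, Chst2, Jdp2, Arl4d, Ttc39b, Lancl3, Bcl2a1d and Mpp2, with differences of responses from -1.11 for Ttc39b to -5.61 for Mpp2, whose naive saline median was 0 CPM and whose fitted value is no bound. Naive saline means were also low for Smyd1 (0.396 CPM), Lancl3 (0.410 CPM), Lag3 (0.568 CPM), Jdp2 (1.15 CPM) and Gzmk (1.21 CPM). Zbtb32 (2.35 CPM) and Gpr55 (3.00 CPM) came next. The part of these low levels in the differences was not tested. Markers of antigen experience (Cd44, Cxcr3, Itgb1), a killer receptor (Klrk1), a granzyme (Gzmk) and inhibitory receptors (Lag3, Ctla4) are among the 22. Within the first naive batch (3 pGal and 3 saline libraries) all 22 differences were below 0 and 2 were called, Gpr55 and Slamf7. Within the second (2 and 2) all 22 were below 0 and 14 were called. The 22 were picked in the joint fit of these same libraries, so the shared sign within each batch was favoured in advance. With primed libraries taken by their OT-I label, 4 of the 22 were called (Cd44, Ctla4, Gpr55 and Ttc39b).

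**Figure D5:**
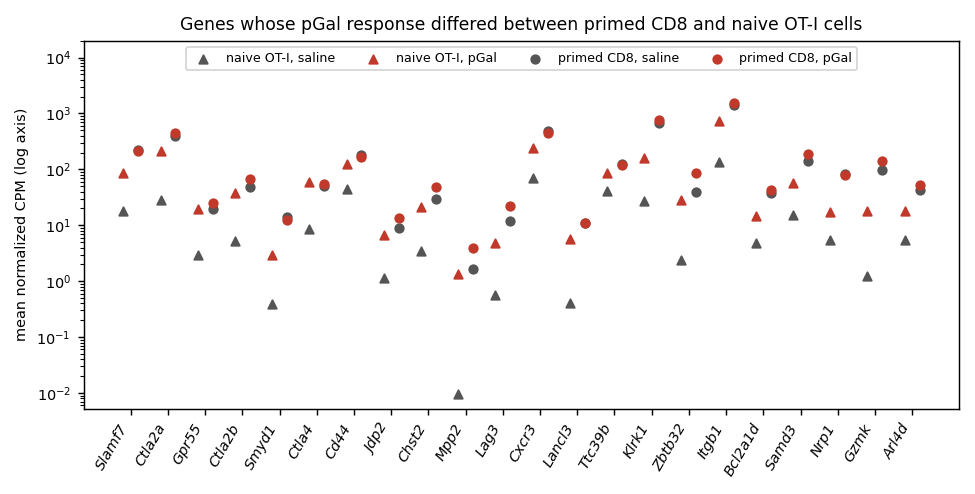
Mean normalized CPM (log axis) of the 22 genes whose pGal response differed between naive OT-I (triangles) and primed CD8 cells (circles), after saline (grey) and pGal (red). Each gene's response is smaller in primed than in naive cells. The primed log2 difference is largest for Mpp2 (1.21), Zbtb32 (1.15) and Lag3 (0.90), whose primed groups overlap, while those of Samd3 (0.45) do not. Primed saline means lie above naive pGal means in all but Ctla4.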

How the data were processed

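The deposited tables hold the authors' estimated counts for each gene. The submitters' processing notes name bcl2fastq, kallisto 0.46.1 and GRCm38. The sum from transcripts to genes is not described in the sources used here, and the library chemistry, SmartSeq v4, keeps no strand, so overlapping genes cannot be told apart. All 3 tables share 21823 genes, of which 21806 have coordinates in the reference annotation.

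Estimated counts were rounded, filtered with filterByExpr, scaled by TMM and tested with edgeR 4.0.16 (R 4.3.3; glmQLFit with robust estimation, glmQLFTest) on all 27 primed CD8 libraries, with Benjamini-Hochberg adjustment over all genes tested. Interactions were fitted over all therapeutic libraries, or over primed CD8 and naive OT-I libraries with a term for the naive batch. DESeq2 1.42.0 and limma 3.58.1 (voom) were alternatives, with other filters, size factors and library sets. The fits were tested on simulated data, where DESeq2 made more false calls than its threshold promises.

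Named were the 10 genes with the smallest p and at least 10 CPM in the higher group (6 in other comparisons; all called ones against naive cells), and a panel of 24 genes, 1 of which is not reported here. The libraries, lists and genes were chosen with earlier results of these data known. Same-numbered pGal and saline libraries did not deviate together (correlations of -0.43 to 0.08), and CD8 and CD4 libraries of 1 treatment and number did so in 12 of 16 pairs (above 0.1; range 0.00425 to 0.688), which by the rule used here, all pairs above 0.1, does not pair them. The highest correlation between any 2 libraries was 0.980, so none was taken as a repeat. Replicates are separate mice, per the design text, which could not be checked for the CD4 saline libraries numbered 6.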

Additional observations from a re-analysis of the deposited data

Results flagged for a closer look

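Of 154 groups of values examined for a single library far from the rest of its group, 25 (16.2%) had one. Chance gives about 1 in 20 for independent and normally distributed values only. The groups overlap, since mt-Co1 is part of the mitochondrial sum and Gzma and Klrb1c are part of the NK marker sum. Some genes were also picked after their values were seen. pGal 5 accounted for 9, saline 4 for 5 and pGal 3 for 4. In pGal 5 these were mt-Co1 (26734 CPM, the next library 3121), the mitochondrial sum (94690 CPM), the NK marker sum (2540 CPM), the B cell marker sum (3035 CPM), Gzma (2182 CPM), Klrg1 (333 CPM) and Klrb1c (174 CPM) as the highest, and Cxcr3 (178 CPM) and the CD4 lineage sum (25.8 CPM) as the lowest. In saline 4 they were Pdcd1 (84.5 CPM), Lag3 (25.1 CPM), Ctla4 (104.3 CPM) and Klf6 (1029 CPM) as the highest and Il7r (396 CPM) as the lowest. In pGal 3 they were Havcr2 (53.8 CPM), Gzmk (332 CPM), Itga4 (567 CPM) and the total count (56.7 M). The others were Bcl2 in saline 1 (499.5 CPM), Egr3 in saline 5 (5.00 CPM), Egr3 in pGal 10 (13.7 CPM), Lag3 (56.9 CPM) and Oasl2 (22.4 CPM) in pGal 1, Eva1b in pGal 4 (77.4 CPM) and Dnajb1 in pGal 7 (827 CPM).

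The pGal response differed between primed CD8 and naive OT-I cells, by the test of the interaction, in 22 genes. The difference of responses on the log2 scale was -2.18 for Slamf7, -2.61 for Ctla2a, -2.39 for Gpr55, -2.13 for Ctla2b, -3.11 for Smyd1, -2.65 for Ctla4, -1.60 for Cd44, -2.44 for Zbtb32, -5.61 for Mpp2, -1.97 for Itgb1, -1.75 for Nrp1, -2.14 for Lag3, -2.13 for Klrk1, -1.89 for Chst2, -1.86 for Jdp2, -1.28 for Arl4d, -1.11 for Ttc39b, -3.07 for Gzmk, -3.44 for Lancl3, -1.74 for Cxcr3, -1.30 for Samd3 and -1.40 for Bcl2a1d.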

How the results depend on the processing

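For pGal against saline the count of 0 calls became 28 with DESeq2, 5 with a mean of at least 10 CPM in a group, and 1 each with RLE size factors, libraries as labelled OT-I, pGal and saline libraries only, or a replicate block on the library number (966 genes at an unadjusted p under 0.05). It was 0 with label-matching libraries, voom, no filter, a fit that was not robust, or without pGal 5 and pGal 9 or pGal 9 and OVA 5, and 0 to 3 without single libraries (3 without saline 2, 2 without saline 3, 1 without pGal 8 or pGal 10). The same-numbered libraries share only a number. No library exceeded 5 times the median B cell or myeloid sum (highest 2.45 and 1.55 times), so that alternative left none out. For pGal against OVA, 0 calls became 23 with DESeq2, 5 with the CPM minimum and 1 without pGal 5 and pGal 9. For OVA against saline, 184 became 100 with label-matching libraries, 565 with DESeq2, 102 with no filter and 381 with the CPM minimum. Against CD4 cells, 0 became 5 with DESeq2 and 1 with treatment and number as a replicate block. Against naive cells, 22 became 38 with DESeq2, 4 by OT-I label and 2 in naive batch 1, and 11 (without the second pGal library of batch 2) to 28 without single naive libraries. The cause was not tested.

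No leading gene changed sign. Signs turned for Tbx21 (-0.115 with label-matching libraries, -0.0461 as labelled, -0.000757 with no filter, -0.0668 without pGal 5 and pGal 9), Ctla4 (-0.0516 with the replicate block) and Cx3cr1 (0.0877 with it). Without single libraries, log2 differences spanned -0.105 to 0.109 for Tbx21, -0.105 to 0.209 for Tigit, -0.0291 to 0.215 for Gzmb and -0.531 to 0.0468 for Mki67. The alternatives for pGal 5, pGal 9, OVA 5, CD4 saline 1 and the naive batches were chosen after the data were seen. Differences smaller than about 0.54 on the log2 scale, the reach of a typical unadjusted interval, were generally not detectable with these libraries. After adjustment larger ones were not called either, such as 1.04 for Tnfrsf13b.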
